A study of Sus scrofa with 22 samples.

Results

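GATA2, GATA3, GATA4 and GATA6 are 4 transcription factor genes that were followed here through pig development from the oocyte to embryonic day 14 (E14) and in pig stem cells. They were taken by name, 4 of the 25749 genes in the authors' table of group means, and read across all 39 of its groups and in the single cells of the count table. GATA2 (ENSSSCG00000011618) lies on chromosome 13 at 71981139 to 71997626 of Sscrofa11.1, and GATA3 (ENSSSCG00000011125) on chromosome 10 at 63367684 to 63397977. GATA4 (ENSSSCG00000022383) lies on chromosome 14 at 14858470 to 14938156, and GATA6 (ENSSSCG00000003702) on chromosome 6 at 107282709 to 107314725. These are the spans of whole genes, and RNA was counted per gene, so isoforms were not separated.

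The study measured polyadenylated RNA of single cells from pig embryos of E0 to E14 (20 libraries, P1 to P20, 1458 cells) and of pgEpiSC, stem cell lines made from the epiblast of E10 embryos before gastrulation (2 libraries, pgEpiSC_low with 93 cells and pgEpiSC_high with 96). The authors sorted the embryonic cells into 37 groups: Oocyte, Zygote, 2C, 4C and 8C (cleavage stages by cell number), Morula_E4, and then lineages by day, where TE is trophectoderm, ICM inner cell mass and the prefix pre an early form. Breed, the embryos that each library drew on, and what low and high stand for are not given in the sources used here. The names Mesdoderm and Defi_Endoderm are the authors' spellings. Whether RNA of these 4 genes entered the authors' sorting of cells was not known here. Tests between lineages may therefore not be independent of that sorting.

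GATA factors bind a short DNA motif for which they are named, through a pair of zinc fingers. In mammals GATA2 and GATA3 are known for the trophectoderm, the outer layer that becomes placenta, and for blood and skin. GATA6 and GATA4 are known for the hypoblast (primitive endoderm), which lines the yolk sac, and later for heart and gut. In the inner cell mass GATA6 marks cells that will form hypoblast, while the transcription factor NANOG marks those that will form epiblast, the founder of the fetus.

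Libraries held from 7415760 to 39405309 counts, and the median over cells was 274531 counts and 9120 genes with a count. Levels are given as CPM, the counts of a gene scaled to a total of 1000000 over all pig genes, summed over the cells of a group or of a group in 1 library. The deposited group means are means over cells of log2(CPM/10 + 1). Tests compared such sums between groups with edgeR's quasi-likelihood test, with adjusted p under 0.05 as the threshold and log2 changes given ± SE. Libraries were the replicates. Steps between stages were tested in 1 fit of all embryonic sums, without a library block unless stated. Their p-values measure the spread between libraries pooled over all groups, not that of the compared groups alone. Sums of the same library counted as independent there. Many steps had no library common to both groups, so stage and library differed together. All 96 cell barcodes recur in more than 1 library, and cells were told apart by library and barcode, while a library usually held several stages or lineages. Counts were not scaled by transcript length, so levels were not compared between genes, and a ratio of 2 genes is set only against the same ratio in another lineage.

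All 4 genes were near 0 in some groups and high in others. GATA2 had its highest deposited mean, among groups of at least 5 cells, in TE_E7 (5.67 ± 0.79, SD over 14 cells) and its lowest values in the stem cells (0.01 in both after rounding). GATA3 was highest in TE_E14 (5.62 ± 0.55, 11 cells) and lowest in pgEpiSC_high. GATA4 was highest in Hypoblast_E9 (4.65 ± 0.46, 57 cells) and GATA6 in preICM_E5 (5.52 ± 0.35, 34 cells), and for both the stem cells were again lowest. In the order of the 39 groups most neighbours could not be told apart. Where both neighbours had at least 2 libraries, the library ranges did not overlap in 2 of 16 pairs for GATA2, 3 of 15 for GATA3, 3 of 17 for GATA4 and 3 of 16 for GATA6.

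**Figure D1:**
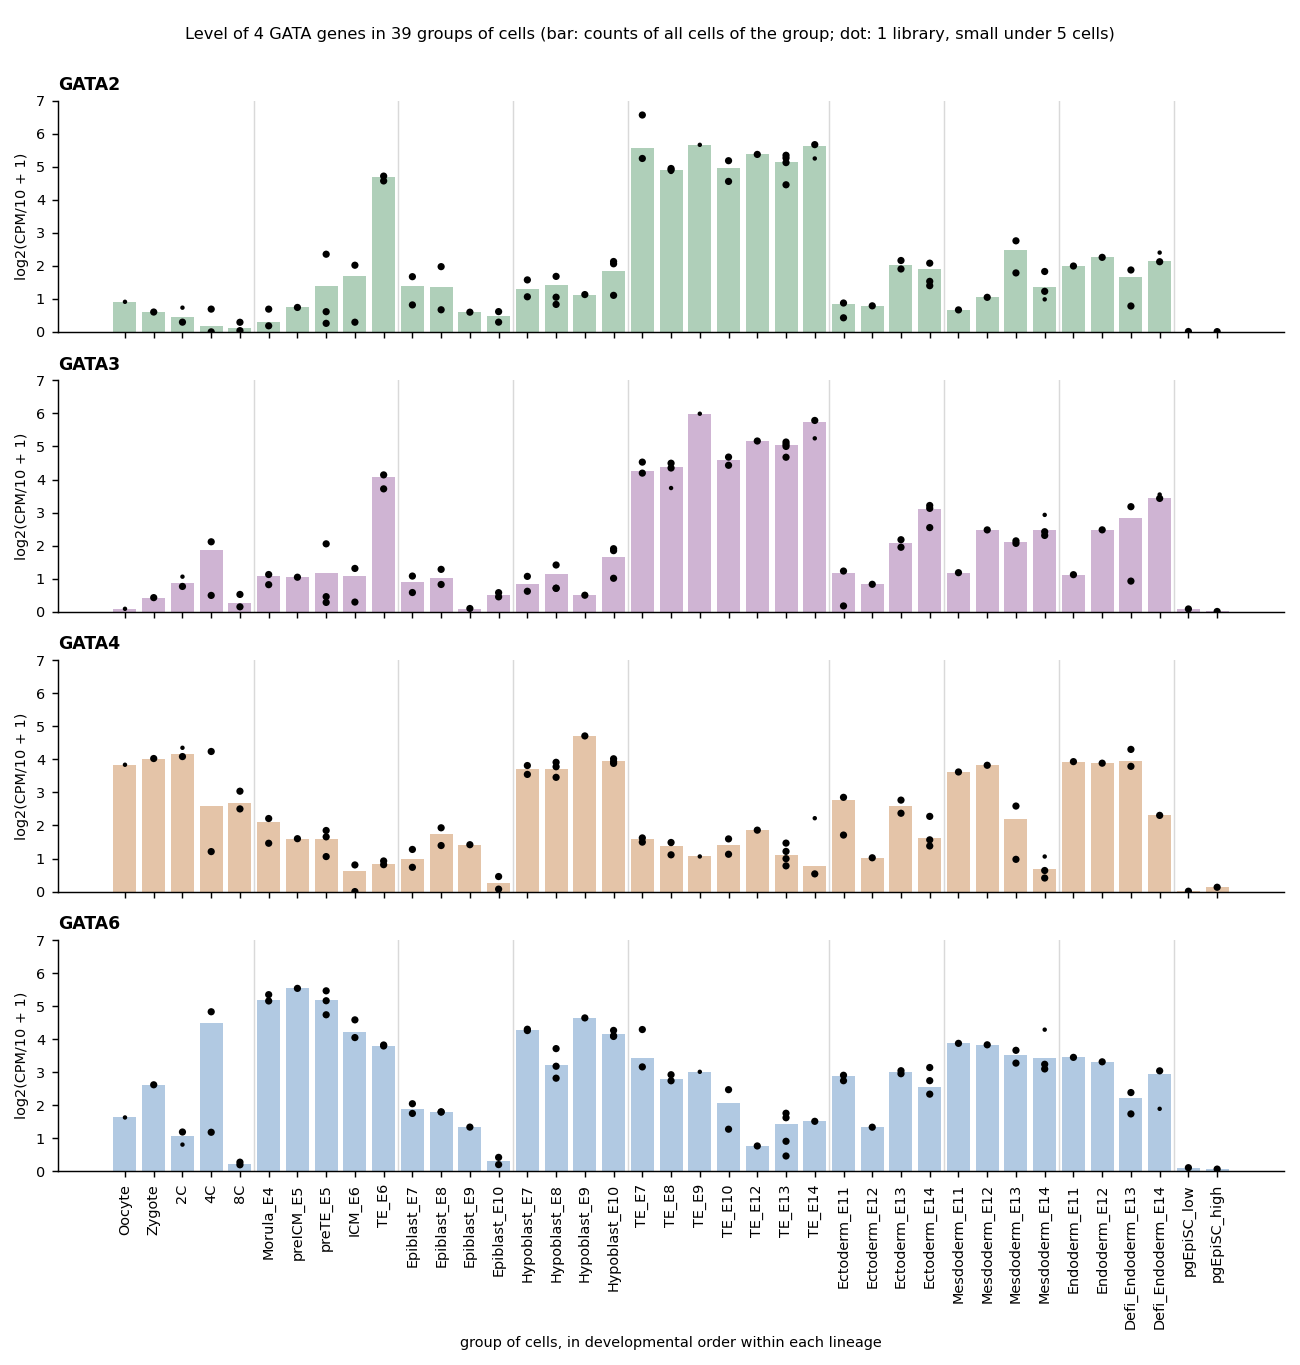
Level of each gene as log2(CPM/10 + 1) in the 39 groups, ordered by lineage and day; bars give the counts of all cells of a group, dots single libraries (small dots hold fewer than 5 cells). GATA2 and GATA3 stand high in every TE group from E6 on. GATA4 stands high in oocyte to 2C, hypoblast, endoderm of E11 to E13 and mesoderm of E11 and E12. GATA6 stands high from morula to ICM_E6, in TE of E6 and E7, in hypoblast, in mesoderm and in Endoderm_E11.

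GATA4 RNA was present before the embryonic genome is active. It stood at 133 CPM in the 4 oocytes, 153 in the 6 zygotes and 171 in the 2C group, with a count in every one of these cells. At 4C the libraries parted: GATA4 was 179 CPM in the 6 cells of P13, like 2C, and 13.1 in the 17 cells of P1. It was 72.1 and 46.6 CPM in the 8C sums of P19 and P20. In Morula_E4 it was 36.3 in P1 and 17.6 in P2, where 8 oocyte markers summed to 1065 and 73.3 CPM. No single step passed the test: 4C against 2C gave -0.88 ± 0.75 (adjusted p = 0.707) and Morula_E4 against 8C gave -1.39 ± 0.76 (adjusted p = 0.162). The morula step passed with DESeq2 (-1.92 ± 0.82, adjusted p = 0.0432) and without a filter on low counts (-1.91 ± 0.63, adjusted p = 0.0122). By E6 it was 7.48 CPM in ICM of P14 and 0 counts in ICM of P15, which allows up to 1.35 CPM.

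GATA6 rose, fell and rose again within the cleavage divisions. It was 12.9 CPM in 2C of P1 and 7.55 in P13, then 275 in 4C of P1 but 12.7 in 4C of P13. So 1 of the 2 libraries at 4C carried the rise: all 17 cells of P1 had at least 30 CPM, from 72.2 to 447, and 1 of 6 cells of P13 did. GATA6 rose from 2C to 4C by 4.08 ± 0.72, in a comparison where 4.52% of 23045 genes were called. The blocked fit, which compares within libraries, gave 3.30 ± 0.63, and without P1 the value was 0.87 ± 0.80 (adjusted p = 1.0). Median depth was 462846 counts a cell in 4C of P1 and 274054 in P13, and the oocyte markers summed to 1391 and 1634 CPM. The part of these in the difference was not tested. In the plot of single cells the 4C cells of P13 lay among the 2C cells.

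At 8C GATA6 was close to absent, at 2.14 CPM in P19 and 1.49 in P20, with a count in 28.8% of 80 cells. It fell from 4C to 8C, which had no library in common, by 5.92 ± 0.78 on the log2 scale, where 11.3% of genes were called. Without P1 the fall was -2.13 ± 0.65 (adjusted p = 0.0548). It then rose to 347 CPM in Morula_E4 of P1 and 398 in P2, a change of 7.39 ± 0.83, where 30.2% of genes were called. The 2 stages had no library in common and did not overlap, and the call held under every alternative run. With DESeq2 size factors the median change of all genes at this step moved from 0.0 to -0.47, which is small beside the change of GATA6. Levels stayed as high at E5: 455 CPM in preICM_E5 of P2 and 432, 349 and 257 in preTE_E5 of P2, P13 and P14. In Morula_E4, preICM_E5 and preTE_E5 every cell had a count.

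GATA3 showed a smaller rise at 4C, again in P1 (33.3 CPM against 4.08 in P13). Its change from 2C was 1.46 ± 0.87 (adjusted p = 0.517), and -1.30 without P1. The fall to 8C (4.37 CPM in P19 and 1.08 in P20) passed the threshold narrowly, at -2.54 ± 0.87 (edgeR adjusted p = 0.0489). It did not without P1 (-0.04, adjusted p = 1.0), P19 (-3.28, adjusted p = 0.0688) or P20 (-1.94, adjusted p = 0.395), nor with mitochondrial genes left out, at least 6000 genes a cell, at least 10 cells a sum or DESeq2 size factors, with adjusted p from 0.0572 to 0.0713. GATA2 stayed at or below 8.78 CPM from oocyte to 8C and passed in none of these steps.

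**Figure D2:**
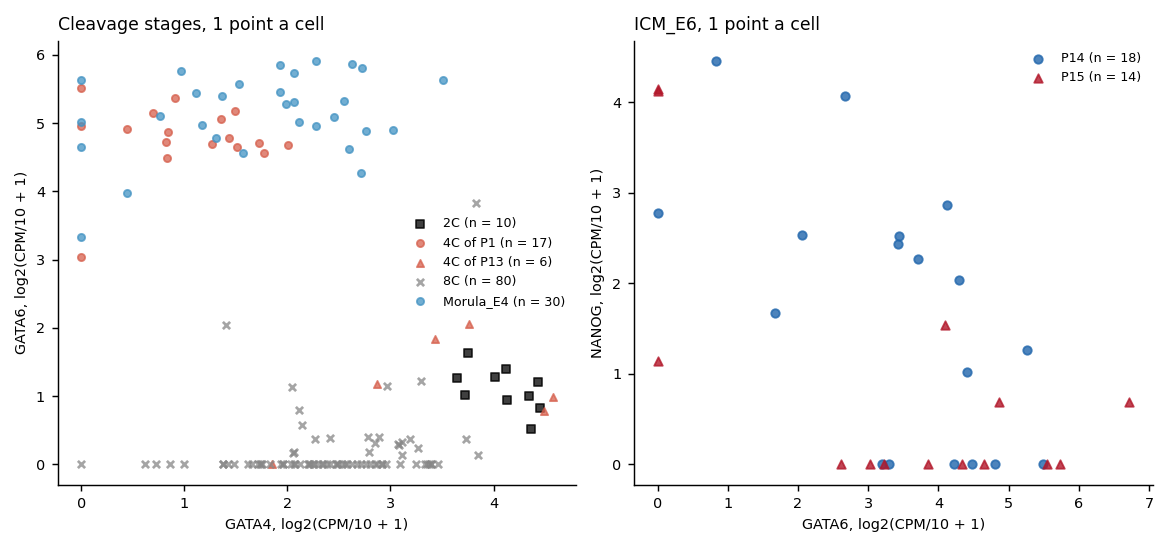
Left: GATA6 against GATA4 in single cells of 2C, 4C, 8C and Morula_E4, both as log2(CPM/10 + 1); the 17 cells of 4C from P1 lie with the morula at high GATA6, the 6 from P13 near 2C. Right: NANOG against GATA6 in 32 cells of ICM_E6 from 2 libraries; all 6 cells under 30 CPM of GATA6 have NANOG, and 3 of 17 cells with at least 100 CPM of GATA6 have 30 CPM or more of it.

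In the inner cell mass of E6 GATA6 differed widely from cell to cell. The 18 cells of P14 ran from 0 to 439 CPM with a median of 109, and the 14 cells of P15 from 0 to 1042 with a median of 147. NANOG was on the whole lower in cells high in GATA6: Pearson's correlation over cells on the log scale was -0.61 in P14 and -0.69 in P15. The other pluripotency factors examined did not follow NANOG, with -0.20 and 0.12 for SOX2 and 0.29 and -0.39 for POU5F1 in P14 and P15. NANOG was detected in 12 of 18 and 6 of 14 cells. All 6 cells under 30 CPM of GATA6 had a NANOG count, while of 17 cells with at least 100 CPM of GATA6, 3 had 30 CPM or more of NANOG and 9 had none. All 3 were among the 9 such cells of P14, and none among the 8 of P15. The cells of a library share its preparation, and the values describe these cells only. With PDGFRA, a growth factor receptor of the hypoblast, GATA6 correlated at 0.13 in P14 and 0.55 in P15. GATA4 had counts in 8 of the 18 cells of P14, up to 23.8 CPM, and in none of P15. No ICM_E6 cell thus reached 30 CPM of GATA4, so that threshold cannot show whether cells held GATA4 and GATA6 together.

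From ICM_E6 the genes went different ways. Stage and library differed together here, with no library common to ICM_E6 and the groups of E7. GATA6 stood at 156 CPM (P14) and 230 (P15) in ICM_E6, at 31.4 (P8) and 23.7 (P9) in Epiblast_E7, and at 182 (P8) and 187 (P9) in Hypoblast_E7. It fell toward the epiblast by 2.82 ± 0.68 on the log2 scale (edgeR adjusted p = 0.0167), where 1.84% of genes were called. That call was lost without P8 (adjusted p = 0.144), P9 (adjusted p = 0.189) or P15 (adjusted p = 0.145), with values from -3.03 to -2.45. Toward the hypoblast GATA6 changed by -0.10 ± 0.62, which did not pass, while GATA4 rose by 4.80 ± 0.89 (adjusted p = 0.00111), where 1.0% of genes were called. GATA4 went from at most 7.48 CPM to 131 (P8) and 107 (P9), without overlap. Without P15 the rise was 4.01 ± 0.99 (adjusted p = 0.0515), and without P14 the remaining ICM library had no GATA4 count, so no fold is given. Of 18 hypoblast markers tested 7 rose at this step, with a median change of 3.51 against 0.0 over all genes. Among them were the laminin LAMC1 (6.25 ± 0.67) and RSPO3, a WNT agonist (6.39 ± 0.90).

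GATA2 and GATA3 appeared at the blastocyst. At E5 they were low in preTE of P13 (GATA2 1.96 CPM and GATA3 2.15) and of P14 (5.26 and 3.72), and higher in P2 (41.0 and 31.5). In preTE of P2 GATA2 reached 30 CPM in 10 of 29 cells and GATA3 in 13, up to 275 and 212 CPM, and 9 cells had no count of each. Those 2 genes correlated at 0.60 over the 29 cells of P2 and at -0.11 over the 23 of P13. With the keratins of simple epithelia the values in P2 were 0.49 (KRT8) and 0.48 (KRT18) for GATA2 and 0.53 and 0.41 for GATA3. With the transcription factors CDX2, TEAD4, TFAP2A and TFAP2C they were from 0.11 to 0.33 for GATA2 and from 0.00 to 0.20 for GATA3. In P13 the keratins gave -0.03 and -0.33 for GATA2 and 0.08 and -0.04 for GATA3. The same transcription factors gave from -0.26 (TEAD4) to 0.47 (TFAP2C) for GATA2 in P13. For GATA3 they gave from -0.19 (TFAP2C) to 0.42 (TEAD4) in that library. The 15 trophectoderm markers summed to 2256 CPM in preTE of P2, 1036 in P13 and 1190 in P14. Median depth was 114440, 215194 and 427337 counts a cell, so the library with the highest levels was the shallowest. The part of these values in the difference was not tested.

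In TE_E6 GATA2 was 252 CPM in P14 and 227 in P15, and GATA3 was 166 and 122. GATA2 rose from preTE_E5 by 4.26 ± 0.85 and GATA3 by 3.89 ± 0.77, both with edgeR adjusted p under the threshold (0.00112 and 0.00104), where 4.89% of genes were called. The 2 groups of libraries did not overlap for either gene. With the library as a block, which rests on P14, the changes were 6.87 ± 0.99 and 6.41 ± 1.03. Without P14 they were 3.69 ± 1.0 (adjusted p = 0.0589) and 3.15 ± 0.93 (adjusted p = 0.0892), and without P2 they were 6.57 and 6.11. Of 15 trophectoderm markers 3 rose, with a median of 0.30 against -0.06 over all genes: TFAP2A, a transcription factor of the trophectoderm (3.08 ± 0.68), and the keratins KRT18 (2.47 ± 0.60) and KRT8 (3.04 ± 0.86). GATA6 went from 257 to 432 CPM in preTE_E5 to 129 and 132 in TE_E6, a change of -1.0 ± 0.59 (adjusted p = 0.336).

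Set against inner cell mass of the same library, GATA2 in preTE and TE of E5 and E6 was 41.0 against 6.69 CPM in P2, 221 against 30.5 in P14 and 227 against 2.24 in P15. GATA3 was 31.5 against 10.6, 146 against 14.8 and 122 against 2.24. Both were higher in 3 of 3 libraries, by 3.62 ± 0.72 and 3.26 ± 0.72, but did not pass after adjustment (edgeR adjusted p = 0.167 and 0.171). In this comparison 0.0% of 12440 genes were called by edgeR, with 1678 at an unadjusted p under 0.05, while DESeq2 called 904. GATA2 and GATA3 were among those of DESeq2 (adjusted p = 2.23e-07 and 1.20e-05). They also passed in edgeR without P2 (4.12 ± 0.68, adjusted p = 0.00653, and 4.15 ± 0.55, adjusted p = 0.00211) and without a filter on low counts. GATA6 changed by -0.33 ± 0.20 (adjusted p = 0.536), with 132 to 432 CPM in the outer and 156 to 455 CPM in the inner cells.

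From E6 to E14 GATA2 and GATA3 stayed high in trophectoderm while GATA6 declined. GATA2 was 370 CPM (P8) and 935 (P9) at E7, from 288 to 298 in the sums of at least 5 cells at E8, 352 (P5) and 225 (P6) at E10, and 403 at E12 in P10. At E13 it was 209 (P10), 373 (P18), 396 (P19) and 338 (P9). GATA3 went from 122 and 166 CPM at E6 to between 173 and 246 in the sums of at least 5 cells at E7 to E10 and between 245 and 341 in the 4 libraries of E13. It reached 542 in the 10 cells of P12 at E14. In no step from TE_E6 to TE_E10 did either gene pass the test, where 0.738% (E7 against E6), 0.0304% (E8 against E7) and 0.13% (E10 against E8) of genes were called. Neither did a member from Morula_E4 to preTE_E5, where 0.0521% were called.

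GATA6 in trophectoderm was 129 and 132 CPM at E6, 186 (P9) and 79.6 (P8) at E7, 66.0 and 56.9 at E8, and 45.6 (P5) and 14.2 (P6) at E10. It was 7.06 at E12, from 3.82 to 23.9 in the 4 libraries of E13 and 18.6 in P12 at E14. No step of a day or 2 passed, but TE_E13 against TE_E6, a contrast chosen after the levels had been seen, gave a fall of 3.32 ± 0.55 on the log2 scale (edgeR adjusted p = 4.42e-05), where 10.1% of genes were called. The E13 and E6 sums did not overlap, but stage and library differed together, with no library common to both groups. The fall held under every alternative run, from -3.80 to -3.12 when a library was left out. In the same contrast GATA2 changed by 0.28 ± 0.76 (adjusted p = 0.939) and GATA3 by 0.91 ± 0.72 (adjusted p = 0.449). Of 18 hypoblast markers 11 rose and none fell there, with a median change of 3.40 against 0.0 over all genes. They included APOA1, an apolipoprotein (6.10 ± 1.01), and RSPO3 (4.81 ± 0.92), while GATA6 fell. ZFPM1, a partner protein of GATA factors, rose by 6.54 ± 1.80 (edgeR adjusted p = 0.0131) from a level near 0. The highest deposited mean of ZFPM1 in any group was 1.16.

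**Figure D3:**
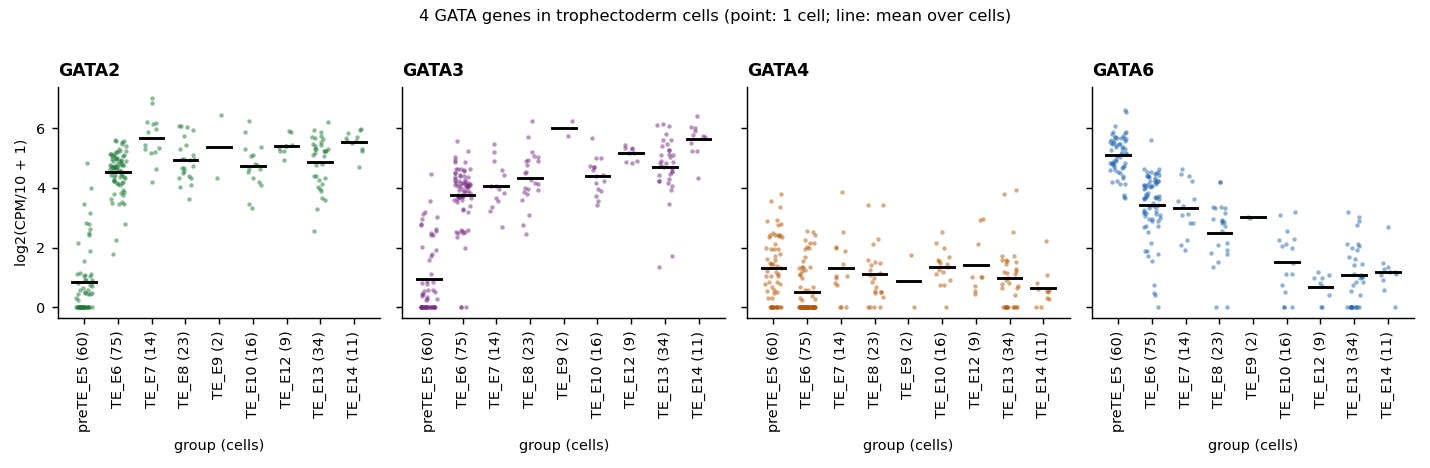
The 4 genes as log2(CPM/10 + 1) in single cells of preTE_E5 and of TE from E6 to E14, with the mean over cells as a line; the number of cells is in brackets. GATA2 and GATA3 rise between E5 and E6 and stay high, GATA4 stays low, and GATA6 declines from 345.9 CPM (mean of 3 libraries) at E5 to 14.3 (mean of 4) at E13.

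Single cells showed the same overlap in time. In TE_E6 65 of 75 cells had at least 30 CPM of both GATA2 and GATA6, and 62 of 75 had both GATA3 and GATA6. Over E6 to E14, 181 of 184 TE cells (98.4%, exact binomial interval 95.3 to 99.7) had counts of both GATA2 and GATA3. After thinning each cell to 50000 counts the share was 98.8% of 172 cells. Intervals of this kind cover counting error alone.

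From E7 to E10 GATA4 and GATA6 were higher in the cells grouped as hypoblast than in those grouped as epiblast. The grouping itself may rest on such genes. Over 6 libraries with both, GATA4 was between 107 and 252 CPM in hypoblast and between 3.71 and 28.1 in epiblast, and GATA6 between 80.8 and 240 against 3.42 to 31.4. The 2 lineages did not overlap for either gene, and both were higher in hypoblast in 6 of 6 libraries. GATA4 was higher by 3.65 ± 0.36 and GATA6 by 3.19 ± 0.42, in a comparison with the library as a block where 18.9% of 17402 genes were called. Both calls held under every alternative run. Of 18 hypoblast markers 15 were higher, with a median of 2.41 against 0.11 over all genes, among them LAMC1 (2.18 ± 0.18), RSPO3 (3.96 ± 0.34) and LAMB1 (2.48 ± 0.22). GATA2 (0.96 ± 0.47, adjusted p = 0.184) and GATA3 (0.83 ± 0.51, adjusted p = 0.295) did not pass.

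Within the hypoblast GATA4 was 131 and 107 CPM at E7, 99.8 to 140 in 3 libraries at E8, 252 in the single library of E9 and 137 to 152 in 3 libraries at E10. GATA6 was 182 and 187 at E7, 60.7 to 121 at E8, 240 at E9 and 160 to 182 at E10. The change of GATA6 from E7 to E8 was -1.01 ± 0.56 (adjusted p = 0.582, where 0.234% of genes were called), although the libraries did not overlap. E9 came from P17 alone, so the day and that library cannot be told apart.

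In the epiblast GATA6 declined to near 0 by E10. Epiblast_E10 had no library in common with the epiblast groups of earlier days. GATA6 was 31.4 and 23.7 CPM at E7, 24.7 and 24.9 at E8 (no member passed in that step, where 0.599% of genes were called), 15.3 at E9, and 1.54 (P15) and 3.42 (P16) at E10. Epiblast_E10 against Epiblast_E7, again chosen after the levels had been seen, gave a fall of 3.83 ± 0.71 on the log2 scale (edgeR adjusted p = 0.00115), where 3.42% of genes were called. Without P15 it was -3.34 ± 0.94 (adjusted p = 0.0762). GATA4 was 14.2 and 6.63 CPM at E7 and 0.523 and 3.71 at E10, a change of -2.64 ± 0.82 that did not pass in edgeR (adjusted p = 0.0583). It did with DESeq2 (adjusted p = 0.0201), without a filter (adjusted p = 0.00258) and without P16 (-4.66 ± 1.16, adjusted p = 0.0334). Of the embryonic groups Epiblast_E10 had the lowest GATA4 level over all its cells (1.90 CPM), ahead of ICM_E6 (5.36).

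Trophectoderm and hypoblast of E7 to E10 differed in all 4 genes. Over 6 libraries GATA2 was higher in trophectoderm by 4.46 ± 0.33 (225 to 935 CPM against 7.79 to 31.7) and GATA3 by 4.16 ± 0.29 (173 to 221 against 5.35 to 27.5), where 18.1% of 13728 genes were called. Neither gene overlapped, and both were higher in 6 of 6 libraries. GATA4 was lower in trophectoderm, a change of -2.88 ± 0.27, with 11.6 to 20.8 CPM against 107 to 152. GATA6 was lower by a smaller margin, at -1.08 ± 0.33 (edgeR adjusted p = 0.0275), with 14.2 to 186 against 80.8 to 187 CPM, and its ranges overlapped. It was lower in 6 of 6 libraries, with 186 against 187 CPM in P9 the closest pair. That call did not hold without P3, P5, P6 or P8 (adjusted p from 0.0587 to 0.0713, changes from -1.13 to -0.75) or without the block (-0.89 ± 0.40, adjusted p = 0.139).

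Set against epiblast in 4 libraries, trophectoderm was higher in GATA2 by 5.0 ± 0.49 and in GATA3 by 4.5 ± 0.44. The epiblast of these libraries was of E7 and E8 alone, and 13.9% of 12182 genes were called. GATA6 was also higher, 48.3 to 186 against 23.7 to 31.4 CPM, by 1.59 ± 0.45 (edgeR adjusted p = 0.0223). That call was lost without P4 (1.68 ± 0.60, adjusted p = 0.0511), without P8 (1.74 ± 0.59, adjusted p = 0.0738) and without a filter on low counts (1.62 ± 0.58, adjusted p = 0.0616). GATA4 changed by 0.37 ± 0.66 (adjusted p = 0.774). Of 11 trophectoderm markers tested 6 were higher, led by TFAP2A (4.59 ± 0.51), ELF3, an epithelial transcription factor (4.62 ± 0.61), and KRT8 (1.92 ± 0.28).

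**Figure D4:**
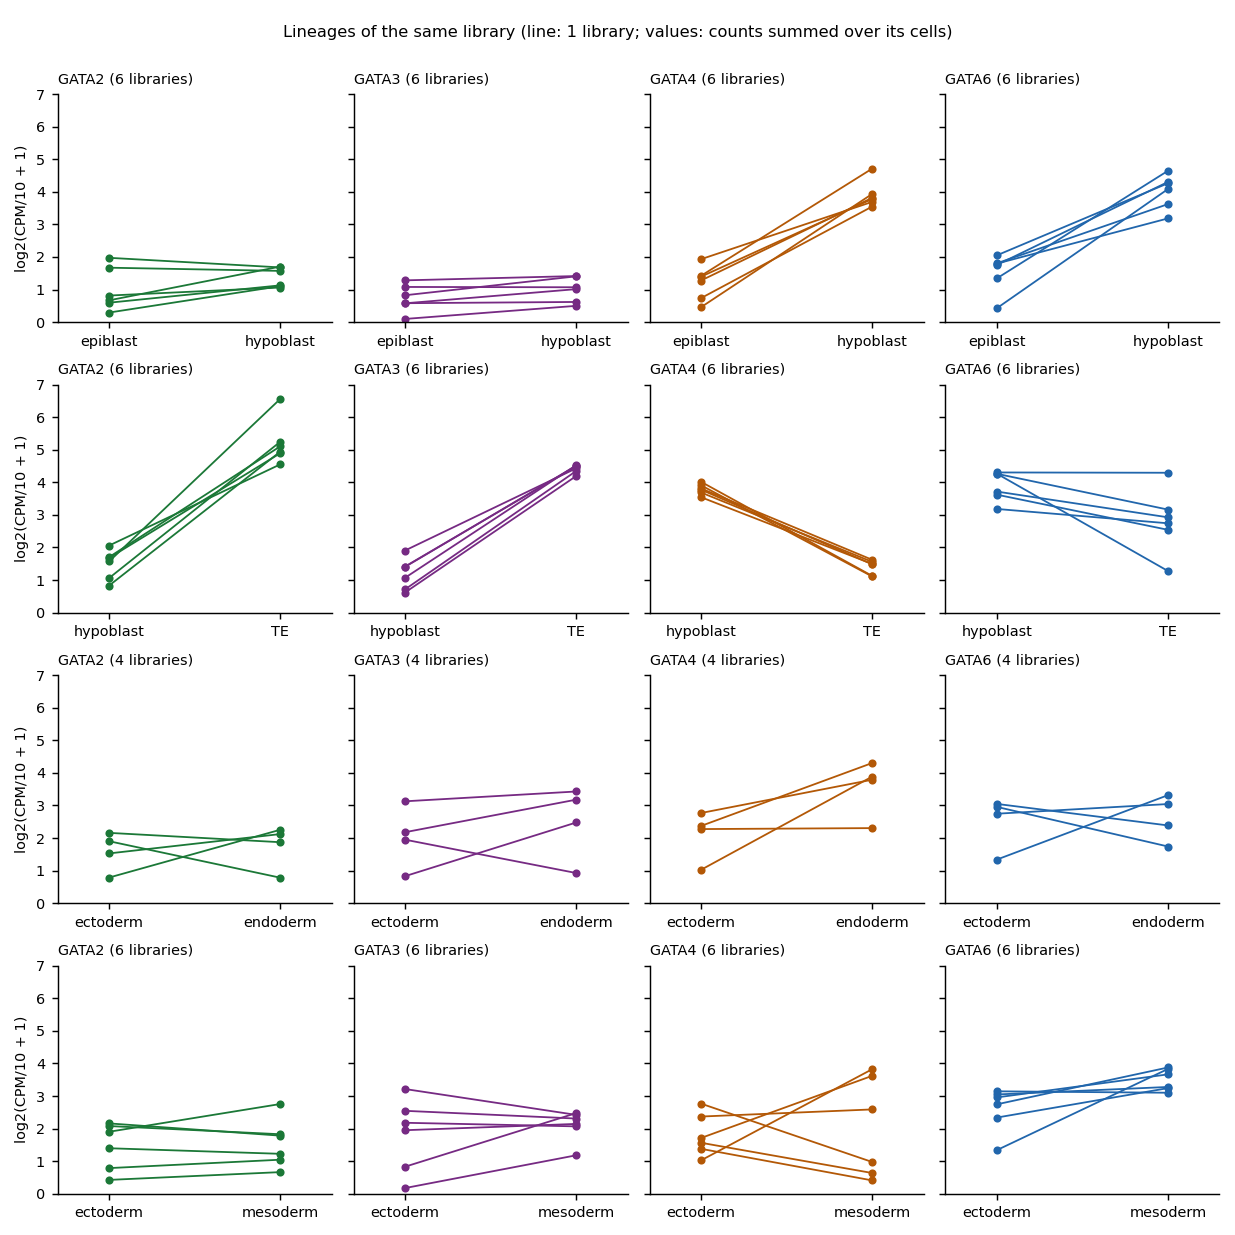
Each line joins 2 lineages of 1 library, as log2(CPM/10 + 1) of counts summed over its cells: hypoblast and epiblast, TE and hypoblast (E7 to E10), endoderm and ectoderm, mesoderm and ectoderm (E11 to E14). GATA4 and GATA6 rise from epiblast to hypoblast in 6 of 6 libraries, and GATA2 and GATA3 from hypoblast to TE in 6 of 6, while the lines of the later germ layers cross.

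The hypoblast had low counts of GATA2 and GATA3. The levels of GATA2 did not follow the order of those in the trophectoderm of the same library. Those of GATA3 did so in part. The lowest trophectoderm level of GATA2 (225 CPM in P6) stood beside the highest in hypoblast (31.7), and the highest (935 in P9) beside 19.7. GATA3 was lowest in P8 in both lineages (173 CPM in trophectoderm and 5.35 in hypoblast), and P3 came next in both (194 and 6.40). The highest GATA3 level in hypoblast (27.5 in P6) stood beside 206 in trophectoderm, below the highest there (221 in P9). GATA2 in hypoblast was from 2.11% (P9) to 14.1% (P6) of its level in the trophectoderm of that library, and GATA3 from 3.09% (P8) to 13.4% (P6). The ratio of GATA2 to GATA3 in hypoblast and trophectoderm was 1.32 and 1.34 in P4, 1.37 and 1.54 in P5, 1.15 and 1.09 in P6, 2.03 and 2.14 in P8, 1.22 and 1.54 in P3, and 1.80 and 4.24 in P9. In Hypoblast_E10 GATA2 was 33.7 CPM in P5 and 31.7 in P6, which hold trophectoderm cells, and 11.5 in P16, which holds none. Hypoblast sums of other days in libraries with trophectoderm cells lay on both sides of P16: 7.79 in P3, 10.7 in P5 at E8, 10.9 in P8, 11.9 in P17, 19.7 in P9 and 22 in P4. The 2 genes correlated over cells of Hypoblast_E10 at 0.61 in P5, 0.77 in P6 and 0.24 in P16. Each of 15 trophectoderm markers had counts in the hypoblast of these 6 libraries, except ELF5 in P3, and they summed to between 953 and 1938 CPM there and to between 4694 and 6323 in trophectoderm. What part RNA of trophectoderm cells has in these counts was not tested.

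GATA4 in trophectoderm was likewise from 7.80% to 17.1% of its level in the hypoblast of the same library. GATA6 was from 7.80% in P6 to 99.3% in P9, and from 42.7% to 70.4% in the other libraries. At the depth of these cells a count was common in most lineages. In epiblast of E7 to E10 GATA2 had a count in 58.4% of 154 cells at levels of at most 29.3 CPM per library.

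Hypoblast cells carried GATA4 and GATA6 together. Both had counts in 346 of 349 cells (99.1%, interval 97.5 to 99.8), in 90.6% of 342 cells after thinning, and at 30 CPM or more in 309 cells (88.5%). The relation of the 2 levels within hypoblast differed between libraries: Pearson's correlation over cells was 0.45 in Hypoblast_E7 of P8 and 0.07 in that of P9, from -0.03 to 0.18 in the 3 libraries of E8, and -0.07 in Hypoblast_E9. In Hypoblast_E10 it was 0.31 (P16), 0.45 (P5) and 0.11 (P6). Spearman's was 0.40 in P8 at E7, 0.43, 0.50 and 0.32 in those 3 libraries of E10 and from -0.08 to 0.25 in the others. In trophectoderm of E6 to E14, 17 of 184 cells (9.24%) reached 30 CPM of both, and in epiblast of E7 to E10 4 of 154 (2.60%).

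At the onset of gastrulation, at E11, GATA6 and GATA4 RNA reappeared in the embryonic disc. Both were lower in Ectoderm_E12, of P10 alone (26 cells), at 15.3 CPM of GATA6 and 10.3 of GATA4. In Ectoderm_E11 GATA6 was 65.2 CPM in P7 (91 cells) and 57.0 in P6 (11 cells), and GATA4 62.2 and 22.7, against 1.54 and 3.42 (GATA6) and 0.523 and 3.71 (GATA4) in Epiblast_E10 of P15 and P16. Stage and library differed together here, with no library common to both groups. GATA6 rose by 4.91 ± 0.74 and GATA4 by 4.63 ± 0.86 (edgeR adjusted p = 0.00421), where 0.195% of genes were called. With the library as a block, linked through other groups, GATA6 rose by 4.51 ± 1.00 (adjusted p = 0.0198) and GATA4 changed by 3.00 ± 1.17 (adjusted p = 1.0). Without P15 neither passed (GATA6 4.42, adjusted p = 0.158, and GATA4 3.80, adjusted p = 0.323), and GATA4 did not without P7 (3.69, adjusted p = 0.165). Of 15 genes of streak and mesoderm 3 rose, with a median of 3.78 against 0.0 over all genes: HAND1, a transcription factor of extraembryonic and cardiac mesoderm (6.31 ± 1.21), KDR, a VEGF receptor (8.83 ± 1.84), and BMP4 (3.78 ± 0.83). The 7 epiblast markers, none of which passed, summed to 723 and 767 CPM in Epiblast_E10 and to 570 and 432 in Ectoderm_E11. The group called ectoderm, taken as a whole, thus still held epiblast RNA. Whether the same cells held it and the new genes was not tested.

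In the larger libraries of Ectoderm_E11 and Ectoderm_E13 GATA4 and GATA6 varied together from cell to cell. Their Pearson correlation was 0.61 over 91 cells of Ectoderm_E11 in P7, 0.72 over 41 cells of Ectoderm_E13 in P18 and 0.68 over 44 cells in P19. It was lower in Ectoderm_E12 (0.34, and 0.07 by Spearman's) and in P11, P12 and P13 of Ectoderm_E14 (0.43, 0.24 and 0.13, and 0.44, 0.33 and 0.00 by Spearman's). In P7 of E11 and in P18 and P19 of E13 either gene correlated with depth at between 0.01 and 0.20. GATA6 ran from 0 to 265 CPM among cells of Ectoderm_E13 in P18 (median 26.1) and from 0 to 281 in P19 (median 66.4). Cells high in GATA6 there had less SOX2, a pluripotency and neural factor (-0.56 in P18 and -0.30 in P19), less POU5F1 (-0.37 and -0.27) and more HAND1 (0.41 in both), while TBXT, FOXA2, SOX17 and ISL1 gave values from -0.21 to 0.29. GATA2 and GATA3 formed another pair, at 0.65 in P18 and 0.43 in P19, while GATA6 with GATA2 was -0.01 and -0.19.

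**Figure D5:**
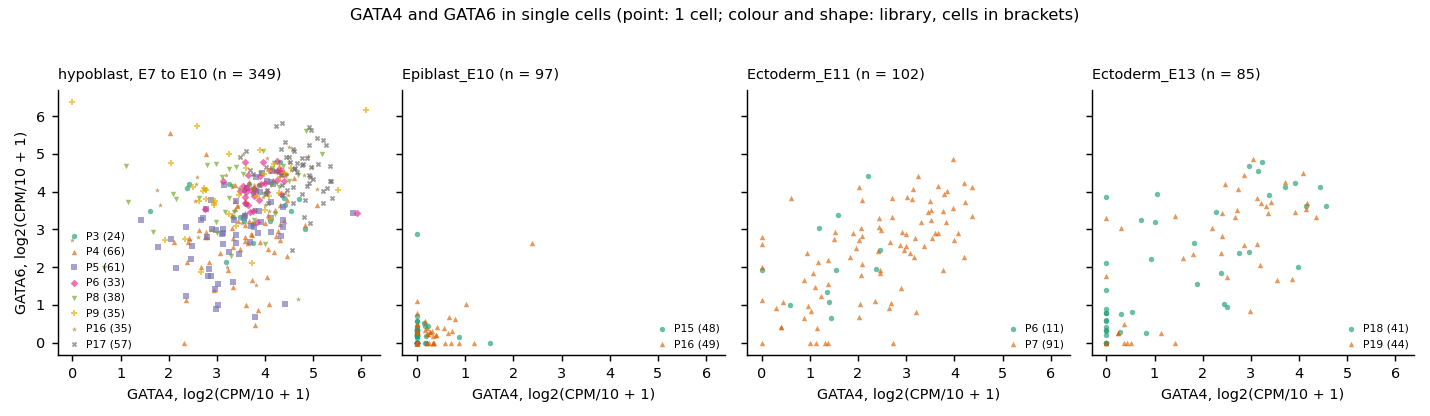
GATA6 against GATA4 in single cells as log2(CPM/10 + 1), coloured by library. Most hypoblast cells hold both genes at high level. Epiblast_E10 cells are low in both, with at most 62.9 CPM of GATA6 and 42.2 of GATA4. In Ectoderm_E11 and Ectoderm_E13 the 2 genes vary together from 0 to high values.

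Between the germ layers of E11 to E14 no member passed the test in edgeR. GATA4 was higher in endoderm than in ectoderm in 4 of 4 libraries, by 1.83 ± 0.49 (adjusted p = 0.0555), with 39.4 to 187 CPM against 10.3 to 58.1, where 1.72% of 15111 genes were called. It passed with DESeq2 (adjusted p = 0.0195), with DESeq2 size factors (adjusted p = 0.0318), without mitochondrial genes (adjusted p = 0.0436), without a filter (adjusted p = 0.00374) and without P11 (2.54 ± 0.49, adjusted p = 2.98e-04). Its values within a library were 138 against 10.3 CPM in P10, 187 against 41.7 in P18, 128 against 58.1 in P19 and 39.4 against 38.4 in P11, so the E14 library showed no gap. Of 17 hypoblast markers tested 10 were higher in endoderm, with a median of 1.92 against -0.24 over all genes. They were led by APOA1 (2.73 ± 0.31), HNF4A, a factor of visceral endoderm and liver (3.97 ± 0.46), and SOX17, an endoderm factor (4.31 ± 0.53).

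GATA6 was higher in mesoderm than in ectoderm in 5 of 6 libraries, by 1.10 ± 0.32 (adjusted p = 0.0891), where 3.2% of 15832 genes were called. DESeq2 gave adjusted p = 0.0111 and the fit without a filter 8.93e-06. It was 137 against 57.0 CPM in P6, 132 against 15.3 in P10, 117 against 67.6 in P18, 87.0 against 72.7 in P19, 84.6 against 40.6 in P12 and 75.8 against 78.4 in P13. GATA4 changed by 0.07 ± 0.77, and its values went both ways: 113 against 22.7 CPM at E11 and 131 against 10.3 at E12, but 3.29 against 16 and 5.55 against 19.6 in the 2 libraries of E14. Of 14 genes of streak and mesoderm tested 5 were higher in mesoderm, with a median of 0.29 against -0.08 over all genes, led by BMP4 (2.13 ± 0.21), HAND1 (2.40 ± 0.29) and FOXF1, a factor of lateral mesoderm (2.74 ± 0.47). GATA4 was lower in mesoderm than in endoderm in 3 of 3 libraries, which were of E12 and E13 alone. It was 131 against 138 CPM in P10 (E12), a near tie. At E13 it was 50.1 against 187 in P18 and 9.66 against 128 in P19. The change was -2.06 ± 0.60 (edgeR adjusted p = 0.142), where 0.857% of 12602 genes were called. That passed with DESeq2 (-2.10 ± 0.62, adjusted p = 0.0292), without a filter (adjusted p = 0.0232) and without P10 (-3.02 ± 0.69, adjusted p = 9.04e-04). Within mesoderm GATA4 was 50.1 (P18) and 9.66 CPM (P19) at E13 and 3.29 (P12) and 5.55 (P13) at E14, a change of -2.54 ± 0.87 (adjusted p = 0.497). There 0.0% of genes were called by edgeR, although 1809 had a raw p under 0.05, and 179 passed with DESeq2.

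Among the ectoderm groups GATA3 was highest at E14, whose libraries were not those of E11 or E13. In Ectoderm_E14 it was 77.4 CPM (P11), 82.8 (P12) and 48.4 (P13), against 35.3 and 28.6 at E13 and 1.29 (P6) and 13.5 (P7) at E11. From E13 to E14 the change was 1.06 ± 0.75 (adjusted p = 0.721), where 0.269% of genes were called. Ectoderm_E14 against Ectoderm_E11, chosen after the levels had been seen, gave 2.82 ± 0.83 (adjusted p = 0.0917), where 0.868% of genes were called. It passed with DESeq2 (2.96 ± 0.80, adjusted p = 0.0133), without a filter (adjusted p = 2.22e-04) and without P13 (3.04 ± 0.76, adjusted p = 0.0457). With the library as a block it was 5.73 ± 1.92 (adjusted p = 0.765). The 7 amnion markers summed to 41.2 and 62.8 CPM at E11 and to 322, 325 and 404 at E14, and the 7 epiblast markers to between 59.0 and 134 at E14. None of the amnion markers passed in this contrast, while 3 of 7 epiblast markers fell, with log2 changes of -4.67 ± 0.55 for POU5F1, -8.05 ± 1.28 for NANOG and -8.33 ± 1.34 for TDGF1. What part amnion cells have in the GATA3 level was not tested. In Defi_Endoderm_E14 GATA3 was 97.7 CPM in the 13 cells of P11. GATA2 in Ectoderm_E14 was 18.9, 32.2 and 16.3 CPM.

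The stem cells held almost none of the 4. Per library GATA2 was 0.0742 CPM (low) and 0.05 (high), GATA3 0.594 and 0.05, GATA4 0.0742 and 0.949, and GATA6 0.817 and 0.5, each with a count in at most 7.29% of cells. Epiblast_E10, the stage of origin, had 2.26 to 5.29 CPM of GATA2 and 3.66 to 4.92 of GATA3. GATA2 was lower in the stem cells, a change of -5.51 ± 1.24 (edgeR adjusted p = 0.0180), where 6.81% of 16737 genes were called. With 1 GATA2 count in each stem cell library, under the floor of 3 counts, the size of the fold is unsure. That call was lost without P15 (-4.75, adjusted p = 0.137), pgEpiSC_low (-5.78, adjusted p = 0.164) or pgEpiSC_high (-5.22, adjusted p = 0.166). GATA3 (-3.50 ± 1.16, adjusted p = 0.101), GATA4 (-1.78 ± 1.09, adjusted p = 0.426) and GATA6 (-1.68 ± 0.68, adjusted p = 0.188) did not pass, and GATA3 did with DESeq2 (adjusted p = 0.0117) and without a filter (adjusted p = 0.00956). Culture and library differ together from the embryo here and cannot be told apart. Of 189 stem cells 2 had counts of both GATA4 and GATA6, and none had counts of any other pair, for which the exact binomial upper bound is 1.93%. That bound covers counting error, and it limits cells with counts at this depth (medians of 136321 and 169412 counts a cell), not cells that express the genes. The 7 epiblast markers summed to 714 CPM in pgEpiSC_low and 630 in pgEpiSC_high, near the 723 and 767 of Epiblast_E10.

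Across the 15 steps tested between stages, members passed in 10 of 60 tests, where 3.73% of all tests were called. GATA6 accounted for 5 of them, GATA2 for 1, GATA3 for 2 and GATA4 for 2.

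Of 12 other genes of the family and its cofactors, GATA1, TRPS1 and TAL1 stayed under a deposited mean of 1 in every group. GATA1, the erythroid member, had its highest deposited mean at 0.17, in Mesdoderm_E14. GATA5, a relative of GATA4 and GATA6, reached 1 only in TE_E14 (1.09 ± 0.97, 11 cells). ZFPM2, a protein that binds GATA4, was highest in 2C (3.32 ± 0.26), while ZFPM1 was highest in TE_E12 (1.16 ± 1.18). LDB1, an adaptor of GATA complexes, was at 1 or more in 38 of 39 groups. GATAD2A and GATAD2B, subunits of the NuRD chromatin complex that share the zinc finger type, peaked in 4C (3.35 ± 0.75) and 2C (5.09 ± 0.32). They were at 1 or more in 38 and 24 groups. GATAD2A fell from 4C to 8C by 2.46 ± 0.48 and rose by 2.11 ± 0.47 to the morula, and at the latter step GATAD2B fell by 2.40 ± 0.64, while ZFPM2 changed by -4.88 ± 1.63. Between hypoblast and epiblast 1 of 6 tested rose (GATAD1, 2.27 ± 0.66) and 1 was lower (TRPS1, a change of -3.18 ± 1.00). GATAD2B also fell from preTE_E5 to TE_E6 (-1.97 ± 0.61), and LMO2, a bridging protein, rose from TE_E6 to TE_E7. The highest deposited mean of LMO2 in any group was 1.79 (Defi_Endoderm_E14). Its log2 change of 9.66 ± 2.43 is therefore from a level near 0, and the size of the fold is unsure.

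The genes with the group pattern most like each member were found by Pearson's correlation of deposited means over 37 groups, among 11187 genes with a highest mean of at least 1. The groups share libraries, so these values are descriptions. For GATA2 they were SCARB2 (0.94), GATA3 (0.94), CHRNA2 (0.94), ELF3 (0.93) and TFAP2A (0.93), and for GATA3 they were GATA2 (0.94), TFAP2A (0.92), CST6 (0.91), DLX3 (0.91) and CHRNA2 (0.91). The 6 of these that are not members had their highest mean in TE_E14. For GATA4 they included HSPA12A (0.83), NAALAD2 (0.79), CASTOR1 (0.77) and BMP2 (0.77), and for GATA6 they were TBX3 (0.81), CDC42EP1 (0.76), RDH10 (0.74), SLC6A8 (0.74) and WWTR1 (0.74). Among the genes like GATA4, HSPA12A and NAALAD2 had their highest mean in Hypoblast_E9, CASTOR1 in 8C and BMP2 in Endoderm_E12. Among those like GATA6, TBX3, CDC42EP1 and SLC6A8 were highest in Morula_E4, WWTR1, a coactivator of the Hippo pathway, in preICM_E5 and RDH10 in Hypoblast_E9.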

How the data were processed

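Single cells of 20 embryo libraries and 2 stem cell libraries were measured with a modified Smart-seq2 protocol with barcoded primers, per the labels' protocols. Of tools, the submitters' processing notes name UMI-tools, STAR (2.7.1a) and featureCounts (1.6.4), and of builds Sscrofa11.1. The authors deposited 1 table of raw counts per gene and cell, and 2 tables of group means and SDs on a log2 scale. The deposited log2 means equal the mean over cells of log2(CPM/10 + 1): the group of every embryonic cell was recovered from them by least squares, each cell fell in exactly 1 of 37 groups, and at least 93.0% of means and 99.9% of SDs came out within 0.001. Spike-ins (1.80% of counts) were left out.

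Counts were summed by group and library (65 sums, of 5 or more cells each, with a minimum of 2 in Zygote, 2C and 4C and of 1 in Oocyte) and tested with edgeR 4.0.16 in R 4.3.3 (filterByExpr, TMM, Benjamini-Hochberg adjustment over all genes tested). Lineages were compared within at least 3 libraries, with the library as a block. Cells of a lineage in a library were summed over its days, so days could differ between 2 lineages. In P5 TE was of E8 (3 cells) and E10 (7 cells), and epiblast of E8 alone. In P14 preTE_E5 (8 cells) and TE_E6 (57 cells) were set against ICM_E6. With only days that both lineages of a library share, the 16 member changes followed kept direction and side of the threshold. DESeq2 1.42.0 and other settings were alternatives. Code was tested on simulated data. The 4 genes and the marker lists were chosen with earlier results of these data known, as were 3 contrasts and some settings named as such in the text. Genes of a list are named by the smallest adjusted p, and genes like a member by the 5 highest correlations, of which 1 is not reported here. A few others (ZFPM1, LMO2, TDGF1 and partners in single cells) were named after their values were seen. Libraries give no record of how many embryos they hold, so p-values measure the spread between libraries, which the stage steps pool over all groups. The zinc fingers of the proteins were not analysed here. Intervals and floors (3 counts) cover counting error alone.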

Additional observations from a re-analysis of the deposited data

Results flagged for a closer look

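Ratios here are log2 of (CPM + 1) in one lineage over (CPM + 1) in the other, within a library. Sets of libraries were formed from these ratios and, for TE_E13, from the CPM of each gene. In 2 of 24 sets, both of ratios, 1 library stood apart by Dixon's criterion, which chance meets in about 1 of 20 sets. GATA2 in TE against epiblast had a log2 ratio of 3.25 in P4, the lowest of 4 libraries. GATA6 in TE against hypoblast had -3.59 in P6, the lowest of 6, and without P6 its change was -0.75 (adjusted p = 0.0704).

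For GATA2, GATA3 and GATA4 mesoderm was higher than ectoderm at E11 and E12, with 1 library each, and lower in both libraries of E14, a difference between days that was not tested. GATA6 did not turn in this way, with 1.25 in P6 and 3.03 in P10 against 1.04 in P12 and -0.05 in P13. For GATA4 the log2 ratio was 2.26 in P6 (E11) and 3.55 in P10 (E12), against -1.99 in P12 and -1.65 in P13 (E14). For GATA3 it was 2.58 in P6 and 2.41 in P10, against -0.91 in P12 and -0.29 in P13. For GATA2 it was 0.63 in P6 and 0.49 in P10, against -0.33 in P12 and -0.27 in P13. At E13 the 2 libraries differed for GATA4, with 0.26 in P18 and -2.47 in P19.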

How the results depend on the processing

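Of 60 member tests in the stage steps 10 passed. With the library as a replicate block, which could be fitted for 5 steps, 4 passed where 5 did without it, and leaving out a library gave from 6 (without P15) to 11. For trophectoderm against inner cell mass 0 members passed, and 2 did with DESeq2 and with no filter, 0 to 2 with a library left out. Hypoblast against epiblast gave 2 throughout, TE against epiblast 2 to 3 and TE against hypoblast 3 to 4 with a library left out. Mesoderm against ectoderm gave 0, and 1 with DESeq2 and with no filter, 0 with any library left out. Endoderm against ectoderm gave 0, and 1 with DESeq2, DESeq2 size factors, no filter and mitochondrial genes left out, 0 to 1 with a library left out. Mesoderm against endoderm gave 0, and 1 with DESeq2 and with no filter, 0 to 1 with a library left out. The stem cells gave 1, and 2 with DESeq2 and with no filter, 0 to 1 with a library left out. The change of GATA3 from 2C to 4C turned to -1.30 without P1, the lowest value with a library left out, and the highest was 2.32 without P13. Of the values of single members with a library left out 154 kept direction and side of the threshold, 24 lost the call, 6 gained it and 1 turned.

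The GATA2 level of TE_E7 ran from 370 to 935 CPM and the GATA3 level of TE_E14 from 370 to 542 with a library left out, and GATA4 in Hypoblast_E9 was 204 CPM with DESeq2 size factors. Cells with GATA4 and GATA6 in hypoblast were 96.6% at 2 counts, 90.6% after thinning and 88.5% at 30 CPM, and 99.0% to 99.4% with a library left out. Cells with GATA3 and GATA6 from morula to ICM were 53.8%, and 29.8% after thinning, 14.1% at 30 CPM and 41.4% to 57.7% with a library left out. GATA2 with GATA3 in trophectoderm ran from 98.2% to 99.4%. DESeq2 called 22222 genes over the stage steps against 12899, and over 1.5 times as many as edgeR in 21 of 26 comparisons. Of the 5 genes most like each member by Pearson's correlation, 2 for GATA2, 1 for GATA3, 4 for GATA4 and 3 for GATA6 were also among the 5 highest by Spearman's. DESeq2 size factors moved the median change of all genes by more than 0.1 in 3 comparisons: -0.47 (Morula_E4 against 8C), -0.23 (TE_E6 against preTE_E5) and -0.11 (hypoblast against epiblast). The cause was not tested.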
